A study of Glycine max with 72 samples.

Results

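MRP-L is a soybean gene on chromosome 19 for a multidrug resistance-associated protein, and the genes on either side of it are described here. They are the genes of chromosome 19 whose start lies within 2 Mb of the start of MRP-L, without MRP-L itself. The interval held 430 of the 56044 annotated genes (0.767%), 197 before MRP-L and 233 after it, and it ran in assembly Wm82.a2.v1 from a first gene start at position 40965487 to a last one at position 44955552. MRP-L, Glyma.19G169000, lies between them at 42961519 to 42970330 on the minus strand. Members lay on both strands (221 plus and 209 minus), and the median distance between neighbouring starts was 7.24 kb. The spans of 23 members overlapped that of another gene. Reads that fell on exons of 2 genes at once were not counted, and how many these were was not measured.

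Phytic acid is the main store of phosphorus in seeds. It is built in the cytosol by a pathway whose first step, from glucose 6-phosphate to myo-inositol phosphate, is catalyzed by MIPS1. Multidrug resistance-associated proteins of the ATP-binding cassette family carry phytic acid into the storage vacuole. Lines that differ by a mutant allele usually also carry a stretch of the donor parent's chromosome around it, because neighbouring genes are inherited together, and genes of such a stretch can differ in expression through variants of their own.

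RNA was sequenced from seeds of 8 lines at 3 stages with 3 biological replicates of pooled seeds each. Stage 1 was the dry seed, stage 2 the seed after 8 h of imbibition and stage 3 the seed at radicle emergence, and seed coats and radicles were taken off at the later stages. The MRP subset held 2MWT (MIPS1/MRP-L/MRP-N), 2MWT-L (MIPS1/MRP-L/mrp-n), 2MWT-N (MIPS1/mrp-l/MRP-N) and 2mlpa (MIPS1/mrp-l/mrp-n). The Mips-MRP subset held 3mlpa (mips1/mrp-l/mrp-n) and 3MWT (MIPS1/MRP-L/MRP-N). All 6 descend from the same pair of parents, one with both mrp alleles and one with mips1, and the study lists the cross in the opposite direction for each of these subsets. The Mips subset held 1MWT (labelled MIPS1) and 1mlpa (labelled mips1), from a cross of the cultivar Essex with the mips1 parent. Their labels give no MRP-L allele (the study's table of lines gives MRP-L and MRP-N for both), and their short sample names could also stand for the parents. Each combination that holds a mutant allele was 1 line, so the allele, the rest of that line's genome and its seed lot cannot be told apart. The labelled genotype MIPS1/MRP-L/MRP-N was held by 2MWT and 3MWT. 3mlpa and 3MWT differ at all 3 loci.

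Library totals were 20295984 to 39759526 counts in 71 libraries, and 201 to 346 members had a count in each. One library, 2MWT-N at stage 2, replicate 1, held 12679 counts. It stayed in the tests, where its few counts carry little weight, and was left out of the levels, so that n is 2 there. Of the 430 members, 259 passed the filter on low counts in the MRP subset, 256 in the Mips-MRP subset and 261 in the Mips subset, and 17 had no count in any library. MRP-L itself was at 46.6 to 69.3 CPM (counts scaled to the library total with TMM factors) in the dry seeds of the MRP subset and was not called in the mrp-l contrast (adjusted p = 0.512 to 0.882, edgeR).

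Most members had no called interaction, and Glyma.19G192000 in dry seeds followed the labels within the MRP subset. At some members the levels went against the grouping that the labels give. Among them were Glyma.19G156200, Glyma.19G159100, Glyma.19G161700 and Glyma.19G162100, all before MRP-L. There 2MWT, labelled MRP-L without other mutations, had levels close to those of 2mlpa and 3mlpa, which are labelled mrp-l. 2MWT-N, labelled mrp-l, had levels close to those of 2MWT-L and, except at Glyma.19G161700, of 3MWT, which are labelled MRP-L. The genes just named were picked because 2MWT and 2mlpa together differed from 2MWT-L and 2MWT-N and because 3mlpa against 3MWT was called. The grouping within the MRP subset and a difference between 3mlpa and 3MWT thus follow from the choice. Glyma.19G164900, also before MRP-L, had a large interaction with another pattern, given below. After MRP-L, Glyma.19G181900, Glyma.19G187500 and Glyma.19G188300 had opposite calls in 2MWT-N against 2MWT and in 2mlpa against 2MWT-L. Gene counts hold no sequence, so the alleles that the libraries carry were not checked. For members named for their interaction, 3mlpa and 3MWT are therefore given as well, since their comparison uses neither 2MWT nor 2MWT-N. For the genes named first, a call in that comparison was part of the choice, so it is no separate check. Directions below refer to the lines as labelled.

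The question the labels pose is whether genes beside MRP-L differ between mrp-l and MRP-L lines. In the MRP subset the mrp-l contrast, the mean of 2MWT-N against 2MWT and of 2mlpa against 2MWT-L, called 15 of 259 members in dry seeds, 12 higher and 3 lower in the mrp-l lines. A call needed an adjusted p under 0.01 (Benjamini-Hochberg, edgeR's quasi-likelihood test over all genes) together with a log2 difference beyond 1 in either direction. That was 5.79% of the members tested, beside 3.19% of all genes and 3.77% of the other genes of chromosome 19. In imbibed seeds 2 members were called (0.772%, beside 0.585% of all genes). At radicle emergence the edgeR test called 0 members (beside 0.723% of all genes), and DESeq2 called 1 of the 251 members it tested. An unadjusted p under 0.05 (edgeR) was found there for 48 of the 259 members, beside 6914 of all 31128 genes tested. The median log2 difference over the members was 0.08, -0.04 and 0.00 at the 3 stages, beside 0.04, -0.03 and 0.00 over all genes. Over any stage the 15 members were 5.79%, beside 3.99% of all genes, and DESeq2 called 18.

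**Figure D1:**
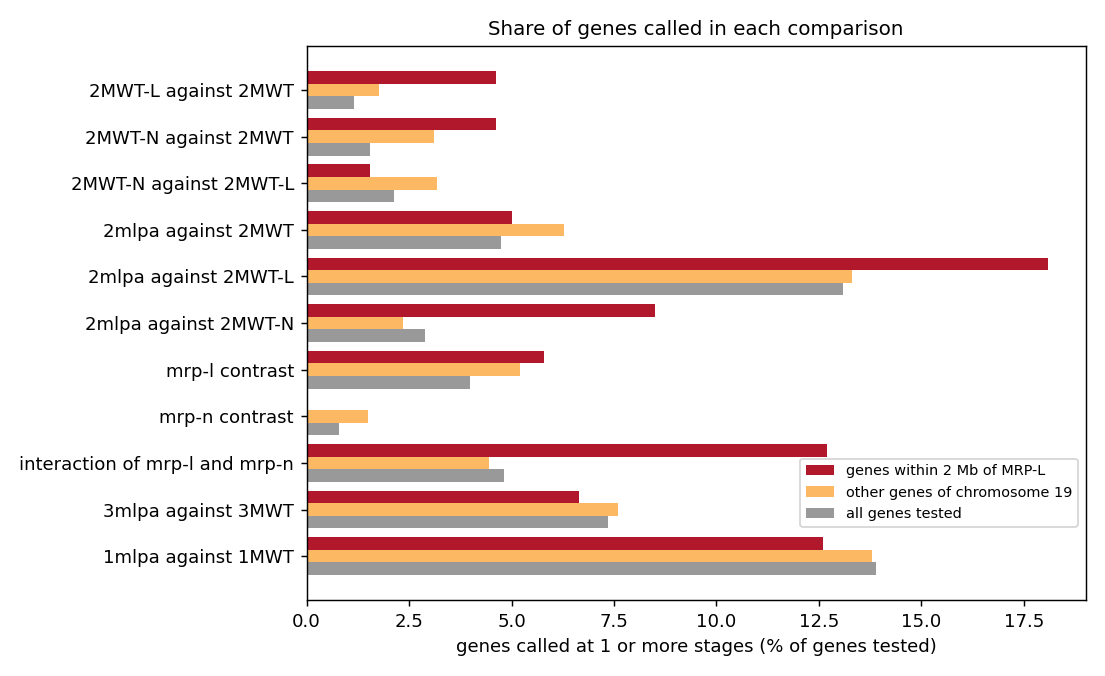
Share of tested genes called at 1 or more stages, in percent, in 11 comparisons of the labelled lines, for the genes within 2 Mb of MRP-L (red), the other genes of chromosome 19 (orange) and all genes tested (grey). The interaction called 12.7% of the interval's genes beside 4.81% of all genes, and the mrp-n contrast called 0 of them. The interaction was called on the adjusted p alone, while the other comparisons also needed a log2 difference beyond 1, so its bars are not comparable with theirs.

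The 6 pairs of lines behaved differently from each other. 2MWT-L and 2MWT carry the same labelled MRP-L allele and differ by label at MRP-N on chromosome 3, yet 12 members were called between them at any stage (4.63%, beside 1.16% of all genes, 1.76% of the other genes of chromosome 19 and 0.746% of the genes within 2 Mb of MRP-N). Without 2MWT stage 1 replicate 1 that count was 7. Between 2mlpa and 2MWT-N, which share the labelled mrp-l allele, 22 members were called (8.49%, beside 2.90% of all genes), or 12 without 2mlpa stage 1 replicate 1 and 14 without either 2MWT-N stage 1 replicate 1 or replicate 2. The pairs that differ by label at MRP-L gave 12 members for 2MWT-N against 2MWT (4.63%, beside 1.55%) and 47 for 2mlpa against 2MWT-L (18.1%, beside 13.1%). Between lines that differ at both loci or by crossed alleles, 13 members were called for 2mlpa against 2MWT (5.02%, beside 4.75%) and 4 for 2MWT-N against 2MWT-L (1.54%, beside 2.14%). Within each of the 3 sets of comparisons given together here no library was shared, but comparisons from different sets share a line. The mrp-n contrast, which averages over both MRP-L labels, called 0 members by edgeR at any stage (beside 0.787% of all genes). In it 49, 23 and 38 of the 259 members had an unadjusted p under 0.05 (edgeR) at the 3 stages, beside 5541, 3496 and 4878 of all 31128 genes. DESeq2 called 0 members as well. The shares of all genes that edgeR called in the mrp-n contrast were 0.450%, 0.209% and 0.405%.

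By stage, the members called for 2MWT-L against 2MWT were 10 in dry seeds, 4 in imbibed seeds and 4 at radicle emergence (beside 0.652%, 0.206% and 0.556% of all genes), which is 3.86%, 1.54% and 1.54% of the members. For 2MWT-N against 2MWT they were 11, 3 and 5 (4.25%, 1.16% and 1.93%, beside 1.46%, 0.116% and 0.209%). Both comparisons thus had a larger share of members than of all genes at each stage. For 2mlpa against 2MWT-L they were 34, 23 and 8 (13.1%, 8.88% and 3.09%, beside 7.12%, 6.22% and 2.18%), and for 2mlpa against 2MWT-N 20, 6 and 4 (7.72%, 2.32% and 1.54%, beside 2.30%, 0.700% and 0.501%). For 2mlpa against 2MWT they were 8, 3 and 3 (3.09%, 1.16% and 1.16%, beside 2.16%, 1.28% and 2.03%). For 2MWT-N against 2MWT-L they were 4 in dry seeds (1.54%, beside 2.02%), and edgeR called 0 at the later stages (beside 0.154% and 0.238%). In these last 2 pairs the members' shares were near or below those of all genes.

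Because opposite differences cancel in a mean, the mrp-l difference was also compared between the backgrounds. The interaction is the log2 difference of 2mlpa against 2MWT-L less that of 2MWT-N against 2MWT. It was called, at an adjusted p under 0.01 (edgeR), for 30 of 259 members in dry seeds, 9 in imbibed seeds and 10 at radicle emergence (11.6%, 3.47% and 3.86%, beside 3.99%, 0.880% and 0.569% of all genes). Over any stage these were 33 members (12.7%, beside 4.81% of all genes, 4.44% of the other genes of chromosome 19 and 2.24% of the genes within 2 Mb of MRP-N), 17 with a positive and 16 with a negative interaction. In 12 members (4.63%, beside 0.469% of all genes) the interaction was called at 2 or more stages. In 4 (1.54%, beside 0.161%) it was called at all 3, namely Glyma.19G156200, Glyma.19G161700, Glyma.19G162100 and Glyma.19G178100. Of these, the calls of Glyma.19G161700 and Glyma.19G178100 at radicle emergence were made in 28 and 30 of the 36 fits that left out 1 library. Called in both pairs at the same stage with opposite directions were 7 members (2.70%, beside 0.135% of all genes), and with the same direction 2 members (0.772%, beside 0.199%). By stage, opposite calls were made in 5, 3 and 3 members (beside 0.112%, 0.0353% and 0.0482% of all genes), and calls in the same direction in 2 members in dry seeds and 0 later (beside 0.170%, 0.0321% and 0.0418%). The 7 were Glyma.19G156200, Glyma.19G159100, Glyma.19G161700, Glyma.19G162100, Glyma.19G181900, Glyma.19G187500 and Glyma.19G188300. No member was near absent in all lines of 1 labelled MRP-L allele and present in all lines of the other. This strict rule asked for at most 3 counts against over 10 counts in every library of usual depth, and it was not counted over all genes.

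**Figure D2:**
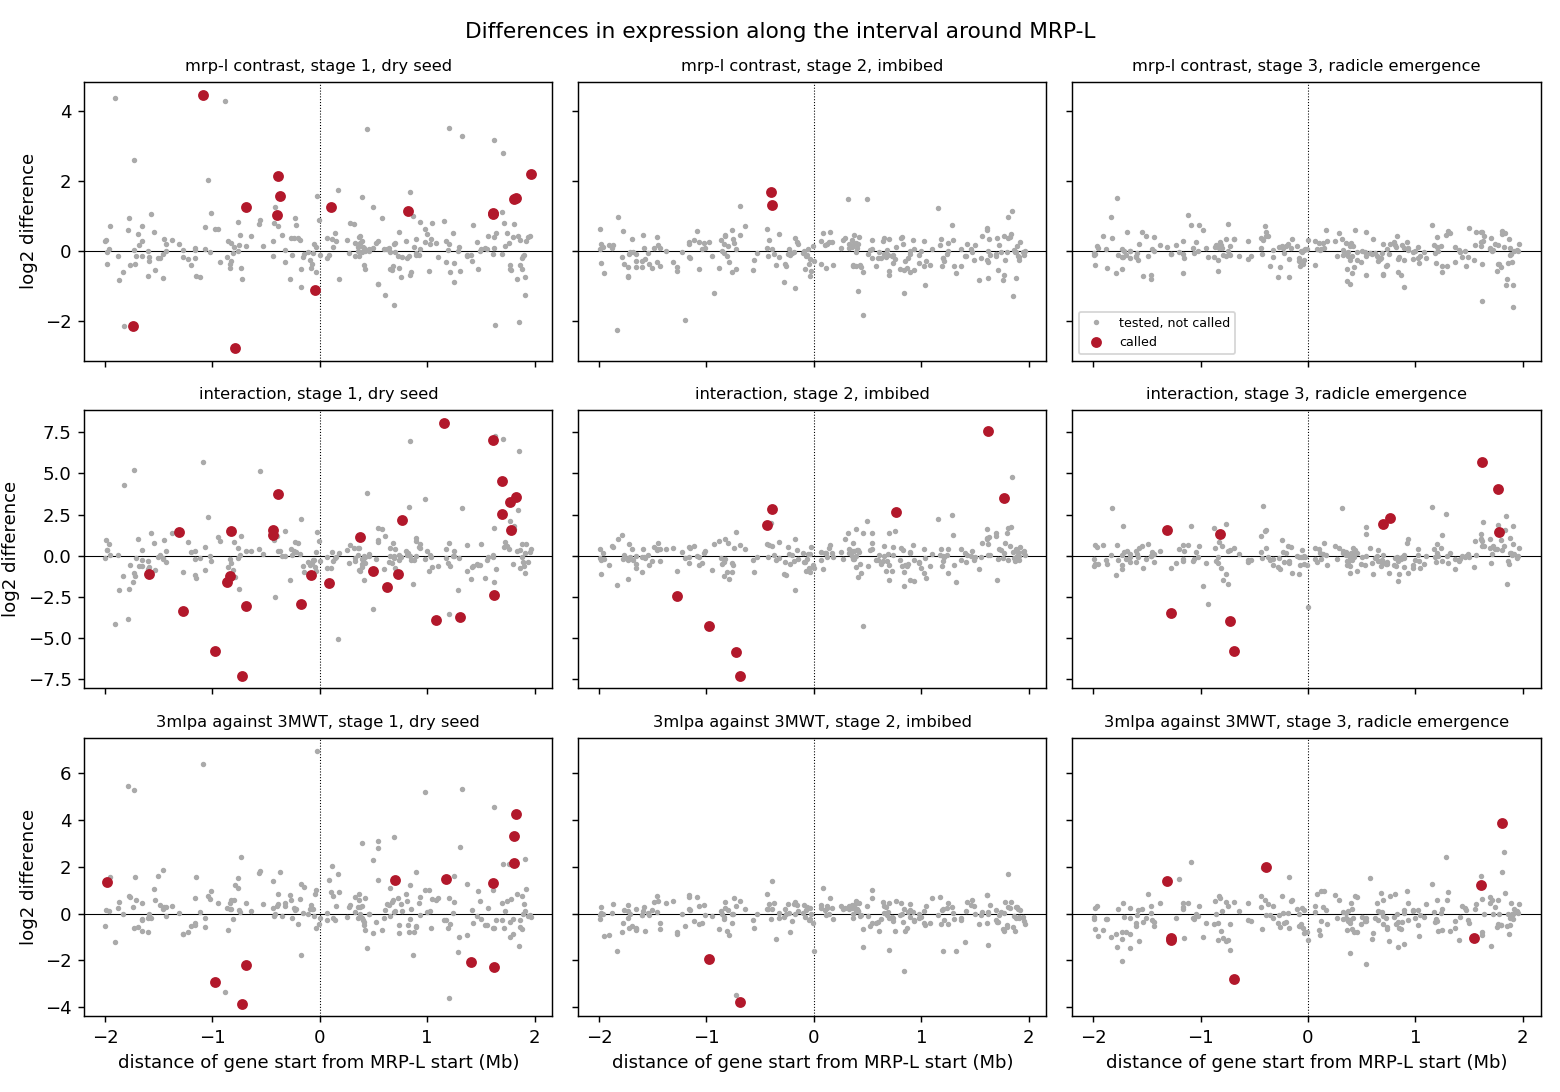
Log2 difference of each tested member (y axis) against the distance of its start from the start of MRP-L in Mb (x axis), for the mrp-l contrast, the interaction and 3mlpa against 3MWT at the 3 stages. Red points were called, and the vertical dotted line marks MRP-L. The mrp-l contrast has 15, 2 and 0 red points, and the interaction, called on the adjusted p alone, has 30, 9 and 10.

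There were 4 members before MRP-L that were called in opposite directions in both MRP pairs and also called in 3mlpa against 3MWT. They were picked out for these calls after their values were seen, so their levels are a description. At 3 of them the levels were low in 2MWT, 2mlpa and 3mlpa and higher in 2MWT-L, 2MWT-N and 3MWT. At the remaining one, Glyma.19G161700, 3MWT overlapped 2MWT in dry seeds. The clearest was Glyma.19G162100, which starts 686 kb before MRP-L. The study pairs it with the Arabidopsis cytochrome P450 gene AT5G63450, whose product there hydroxylates the hormone jasmonoyl-isoleucine. In imbibed seeds its level was 0.770, 1.32 and 0.307 CPM in 2MWT and 2.87, 1.61 and 3.11 CPM in 2mlpa. It was 14.4, 13.8 and 10.8 CPM in 2MWT-L and 23.1 and 26.7 CPM in 2MWT-N. The libraries of 2MWT and 2mlpa were thus all below those of 2MWT-L and 2MWT-N. 2MWT-N exceeded 2MWT by 4.95 ± 0.47 (log2, SE; adjusted p = 2.7e-08, edgeR), 2mlpa was below 2MWT-L by a log2 difference of -2.36 ± 0.40 (adjusted p = 1.5e-04) and the interaction was -7.31 ± 0.62 (adjusted p = 1.1e-09). In the Mips-MRP subset, whose libraries are separate, the level in imbibed seeds was 0.986, 0.850 and 1.42 CPM in 3mlpa and 14.2, 18.8 and 11.9 CPM in 3MWT, a log2 difference of -3.78 ± 0.35 (adjusted p = 6.1e-06). 3mlpa was also lower in dry seeds (-2.22 ± 0.37) and at radicle emergence (-2.82 ± 0.33), and each of these 3 calls held in all 18 fits that left out 1 library. 1MWT was at 10.1, 7.80 and 11.2 CPM and 1mlpa at 10.7, 7.77 and 13 CPM in imbibed seeds, above all libraries of the low lines and overlapping those of 2MWT-L and 3MWT.

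Glyma.19G159100 lies 974 kb before MRP-L and is not annotated in the sources used here. In dry seeds it was at 4.15, 3.68 and 0.673 CPM in 2MWT, 5.50, 1.89 and 3.41 CPM in 2mlpa and 2.05, 5.05 and 0.498 CPM in 3mlpa. It was at 16.2, 17.7 and 18.7 CPM in 2MWT-L, 38.6, 26.7 and 34.3 CPM in 2MWT-N and 20.8, 18.1 and 25.5 CPM in 3MWT. No library of the first 3 lines reached any library of the other 3, at this stage or in imbibed seeds. The interaction in dry seeds was -5.80 ± 0.47 (adjusted p = 4.3e-10, edgeR) and 3mlpa was below 3MWT by a log2 difference of -2.95 ± 0.42 (adjusted p = 3.7e-04). In imbibed seeds the difference of 3mlpa from 3MWT was -1.96 ± 0.39 (adjusted p = 0.0097), a call that was lost in 14 of the 18 fits that left out 1 library. At radicle emergence the lines came closer, at 6.04 CPM on average in 2MWT and 17.2 CPM in 2MWT-N, and the interaction was not called. 1MWT and 1mlpa were at 5.42 ± 1.47 and 3.71 ± 0.705 CPM (n = 3) in dry seeds, near the low lines.

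Glyma.19G156200, 1278 kb before MRP-L and also without annotation here, differed at every stage. At radicle emergence it was at 4.97, 4.35 and 2.81 CPM in 2MWT and 4.78, 3.70 and 2.10 CPM in 2mlpa, against 12.5, 12 and 12.8 CPM in 2MWT-L and 13.6, 15.2 and 9.18 CPM in 2MWT-N. The interaction was -3.39 ± 0.38, -2.48 ± 0.38 and -3.46 ± 0.37 at stages 1, 2 and 3 (adjusted p = 3.4e-07, 1.3e-04 and 1.2e-07, edgeR), and each held in all 36 fits without 1 library. In 3mlpa it was at 5.75, 5.26 and 5.89 CPM at radicle emergence, below the 14.4, 11.9 and 10.7 CPM of 3MWT. That difference (-1.13 ± 0.26, adjusted p = 0.0092) was called in 6 of 18 fits without 1 library.

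Glyma.19G161700, 723 kb before MRP-L and without annotation here, had its higher levels in dry seeds. There it was at 2.26, 1.48 and 1.18 CPM in 2MWT and 0.846, 0.489 and 0.777 CPM in 2mlpa, against 18.4, 17.3 and 11 CPM in 2MWT-L and 15.4, 10.8 and 9.28 CPM in 2MWT-N. The interaction there was -7.31 ± 0.73 (adjusted p = 3.6e-08, edgeR). 3mlpa held 0 to 6 counts of it in a dry-seed library and 3MWT 18 to 61, at 2.36 ± 1.24 CPM (n = 3). This lower level in 3mlpa was called (adjusted p = 0.0058), but 5 of the 18 fits without 1 library lost the call, and so did the fit of each stage on its own libraries (adjusted p = 0.256). 3MWT was well under 2MWT-L and 2MWT-N, and its libraries overlapped those of 2MWT, so of these 6 lines only 2MWT-L and 2MWT-N were high in dry seeds.

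**Figure D3:**
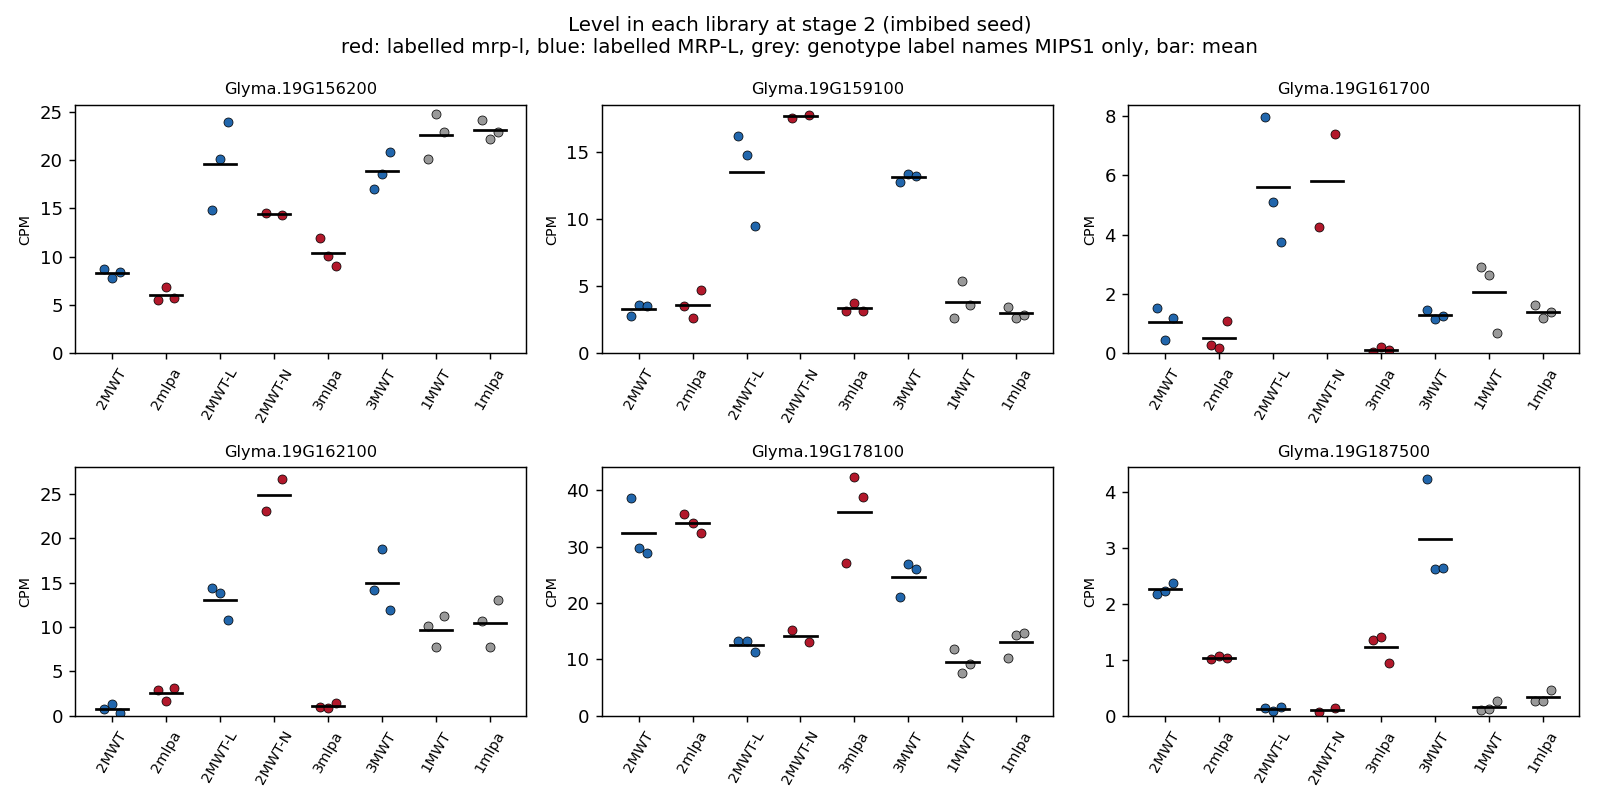
Level in CPM in each library of imbibed seeds (points) and the mean of each line (bars), for 6 members, with lines labelled mrp-l in red, lines labelled MRP-L in blue and lines of the Mips subset in grey. For Glyma.19G162100 the lines 2MWT, 2mlpa and 3mlpa lie at 0.307 to 3.11 CPM and 2MWT-L, 2MWT-N and 3MWT at 10.8 to 26.7 CPM.

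After MRP-L the members with an interaction at 2 or more stages were higher in 2MWT and 2mlpa, and 3MWT no longer stood with 2MWT-L and 2MWT-N at most of them. These genes are named because of their called interaction, so their levels in the MRP subset are given as a description. Other members after MRP-L went the other way in dry seeds. At Glyma.19G181900, 2MWT-N differed from 2MWT by 2.20 and 2mlpa from 2MWT-L by -1.75 (log2). Glyma.19G187400, described below, was lower on average in 2MWT and 2mlpa. Glyma.19G178100, 763 kb after MRP-L, was at 38.6, 29.7 and 28.8 CPM in 2MWT and 35.8, 34.3 and 32.5 CPM in 2mlpa in imbibed seeds, against 13.2, 13.2 and 11.3 CPM in 2MWT-L and 15.1 and 13.2 CPM in 2MWT-N. 3mlpa was at 27.1, 42.3 and 38.8 CPM and 3MWT at 21.1, 26.9 and 26 CPM, a log2 difference of 0.55 ± 0.22 that was not called (adjusted p = 0.286, edgeR). All 3 libraries of 3MWT were above those of 2MWT-L and 2MWT-N.

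Glyma.19G187500, 1624 kb after MRP-L, had at most 7 counts in any dry-seed library and appeared with imbibition. At radicle emergence it was at 4.62, 4.58 and 1.80 CPM in 2MWT and 2.66, 2.80 and 4.12 CPM in 2mlpa. It was at 0.500, 0.844 and 0.389 CPM in 2MWT-L and 0.646, 0.332 and 0.190 CPM in 2MWT-N. The interaction was 5.69 ± 0.80 (adjusted p = 5.0e-05, edgeR). In 3mlpa it was at 5.68, 3.23 and 5.39 CPM and in 3MWT at 9, 10.2 and 7.85 CPM, so here 3MWT had the highest level of all lines and its difference from 3mlpa had the other sign (-0.92 ± 0.36 for 3mlpa against 3MWT, adjusted p = 0.136, not called). 1MWT and 1mlpa, at 0.486 ± 0.130 and 0.605 ± 0.229 CPM (n = 3), were as low as 2MWT-L and 2MWT-N.

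Glyma.19G189400, 1773 kb after MRP-L, had the same order in imbibed seeds, at 62.6 ± 36.5 CPM in 2MWT and 105 ± 26.8 CPM in 2mlpa against 23.5 ± 1.72 CPM in 2MWT-L (n = 3) and 25.4 ± 5.91 CPM in 2MWT-N (n = 2). 3mlpa (57.1 ± 10.0 CPM) and 3MWT (56.6 ± 10.6 CPM, n = 3) were alike in the mean, with a log2 difference of 0.01 ± 0.31. Its interaction was 3.48 ± 0.60 in imbibed seeds and 4.08 ± 0.71 at radicle emergence (adjusted p = 6.6e-04 and 8.8e-04, edgeR). The neighbour Glyma.19G189600 had an interaction of 1.59 ± 0.30 in dry seeds and 1.45 ± 0.30 at radicle emergence (adjusted p = 9.0e-04 and 0.0061), and the later one was called in 28 of 36 fits without 1 library. In dry seeds it was at 206 ± 57.9 CPM in 2MWT and 81.0 ± 8.31 CPM in 2MWT-N, while 2mlpa had 142 ± 31.5 CPM and 2MWT-L 120 ± 12.3 CPM (n = 3), a pair that was not called (0.24 ± 0.21, adjusted p = 0.432). 3mlpa, at 256 ± 149 CPM, and 3MWT, at 165 ± 56.6 CPM, were not called either (0.63 ± 0.33, adjusted p = 0.206).

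Of the other members with an interaction at 2 stages, Glyma.19G155900, Glyma.19G160700 and Glyma.19G164400 lay before MRP-L and were higher on average in 2MWT and 2mlpa at the stages given. Glyma.19G155900, 1309 kb before it, was at 7.86, 9.09 and 9.04 CPM in 2MWT, 7.28, 10.7 and 9.28 CPM in 2mlpa and 12.5, 11.4 and 15.4 CPM in 3mlpa at radicle emergence. It was at 4.50, 4.24 and 6.05 CPM in 2MWT-L, 5.39, 6.51 and 4.62 CPM in 2MWT-N and 5.52, 4.88 and 4.75 CPM in 3MWT. 3mlpa exceeded 3MWT by 1.37 ± 0.23 (log2; adjusted p = 8.2e-04, edgeR), a call kept in all 18 fits without 1 library. Glyma.19G160700, 823 kb before MRP-L, was at 13.8 ± 0.735 CPM in 2MWT and 16.9 ± 2.66 CPM in 2mlpa at radicle emergence, against 8.85 ± 0.517 CPM in 2MWT-L and 10.4 ± 1.08 CPM in 2MWT-N (n = 3). There 3mlpa was at 16 ± 2.26 CPM and 3MWT at 10.2 ± 1.21 CPM, which was not called (0.65 ± 0.21, adjusted p = 0.0667). The interaction at radicle emergence was called in 28 of 36 fits without 1 library at Glyma.19G155900 and in 30 at Glyma.19G160700. Glyma.19G164400, 434 kb before it, had an interaction of 1.55 ± 0.38 in dry seeds and 1.85 ± 0.40 in imbibed seeds (adjusted p = 0.0075 and 0.0086), which were called in 29 and 22 of 36 fits without 1 library. Without 2MWT-N stage 2 replicate 2 the adjusted p in imbibed seeds was 0.207, and without the near-empty library it was 0.012. 3mlpa against 3MWT was at 1.38 ± 0.35 in dry seeds and 0.82 ± 0.34 in imbibed seeds for this gene (adjusted p = 0.0138 and 0.303, not called). Of the 33 interaction members, 24 had a difference of 3mlpa from 3MWT, averaged over the stages, with the sign of the interaction, and 9 had the other sign. Called in 3mlpa against 3MWT were 7 of the 33 (beside 7.36% of all genes), in 10 combinations of gene and stage, all with the sign of the interaction. Signs were not compared over all genes with a called interaction, so neither count can be called particular to the interval.

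Glyma.19G164900 also had an interaction at 2 stages, with another pattern, being highest in 2mlpa in dry seeds. It lies 394 kb before MRP-L, and the study pairs it with AT5G44120, an Arabidopsis gene for a 12S cruciferin seed storage protein. In dry seeds it was at 343, 184 and 109 CPM in 2mlpa, against 30.5, 27.7 and 22.3 CPM in 2MWT, 11.3, 9.08 and 19.0 CPM in 2MWT-L and 32, 27.3 and 38.1 CPM in 2MWT-N. 2mlpa exceeded 2MWT-L by 4.02 ± 0.42 (log2; adjusted p = 7.2e-08, edgeR) and 2MWT by 2.98 ± 0.40 (adjusted p = 1.2e-05), and the mrp-l contrast was 2.15 ± 0.27 (adjusted p = 4.1e-06). The summed level of 8 seed storage and seed protein genes on other chromosomes was also highest in 2mlpa within the MRP subset. It was 40091 to 116729 CPM in the dry seeds of 2mlpa and 13376 to 22062 CPM in 2MWT. In 2MWT-L it was 5442 to 12531 CPM and in 2MWT-N 13229 to 22720 CPM. In the other subsets the dry-seed sums overlapped, at 1986 to 5447 CPM in 3mlpa and 2417 to 2902 CPM in 3MWT. They were 1584 to 5151 CPM in 1MWT and 1738 to 3558 CPM in 1mlpa. Glycinin 1 (Glyma.03G163500) weighs most in the sum, with a median of 1495 CPM over libraries beside 0.852 to 284 CPM for the others. The 8 were not compared singly between lines. None of the 8 was at 0 in all libraries, and the beta-conglycinin gene Glyma.20G148400 had 2 to 949 counts. The part of this difference in seed storage RNA in the result was not tested. In 3mlpa and 3MWT Glyma.19G164900 was at 12.7 ± 5.80 and 9.64 ± 2.78 CPM in dry seeds, and in 1MWT and 1mlpa at 0.625 ± 0.584 and 0.257 ± 0.235 CPM (n = 3). At radicle emergence the libraries of 3mlpa had 7.67, 2.43 and 1.81 CPM and those of 3MWT 1.14, 0.740 and 1.10 CPM. That difference (2.0 ± 0.45, adjusted p = 0.0085) was called in 6 of 18 fits without 1 library, and without 3mlpa stage 3 replicate 1 it was 1.09 (adjusted p = 0.0689).

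**Figure D4:**
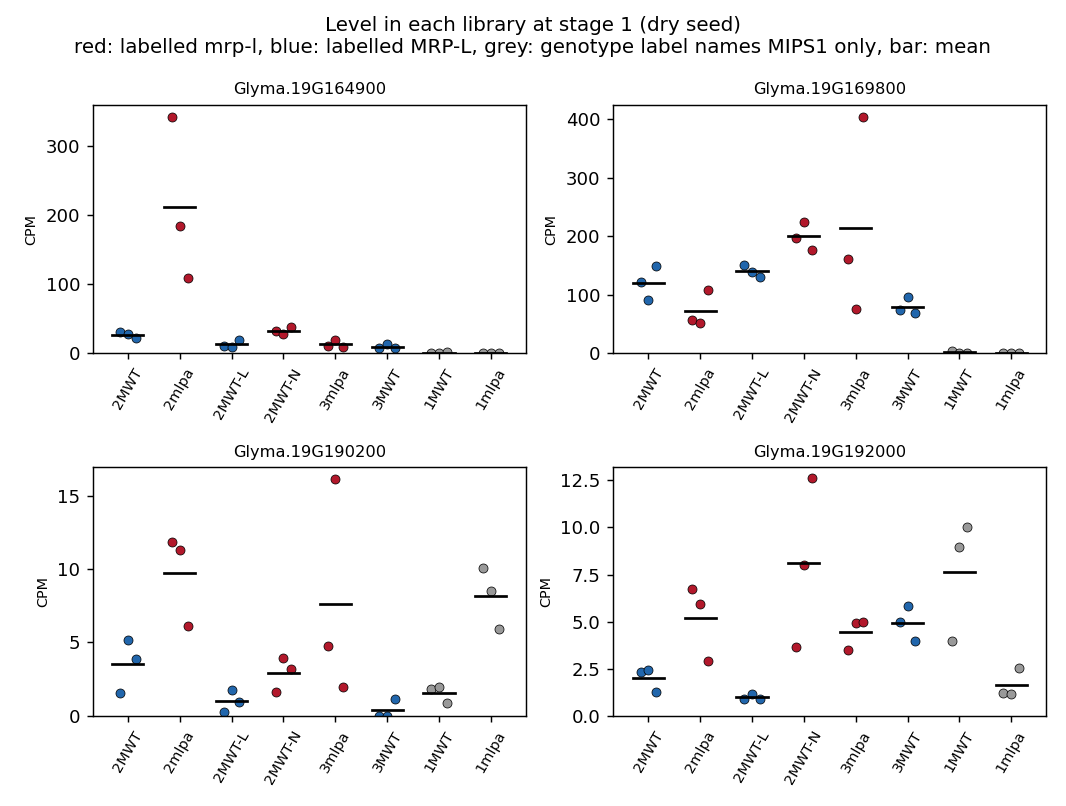
Level in CPM in each dry-seed library (points) and the mean of each line (bars) for 4 members, coloured as labelled (red mrp-l, blue MRP-L, grey Mips subset). Glyma.19G164900 reaches 109 to 343 CPM in 2mlpa alone, and Glyma.19G169800 is at 52.5 to 404 CPM in 6 lines and at 0.154 to 3.68 CPM in 1MWT and 1mlpa.

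Members called in the same direction in both MRP pairs were Glyma.19G187100 and Glyma.19G192000, both in dry seeds and both higher in the lines labelled mrp-l. Glyma.19G192000 lies 1967 kb after MRP-L, and the study pairs it with AT5G03700, an Arabidopsis gene for a lectin-domain protein. It was at 2.34, 2.43 and 1.26 CPM in 2MWT and 0.907, 1.16 and 0.885 CPM in 2MWT-L, against 3.66, 8.02 and 12.6 CPM in 2MWT-N and 6.71, 5.93 and 2.93 CPM in 2mlpa, with no overlap between labelled alleles. The mrp-l contrast was 2.19 ± 0.28 (log2; adjusted p = 4.8e-06, edgeR). 3mlpa (4.47 ± 0.839 CPM) and 3MWT (4.91 ± 0.940 CPM, n = 3) did not differ in the same way, with a log2 difference of -0.15 ± 0.29 (adjusted p = 0.780). Glyma.19G187100, 1614 kb after MRP-L, was at 10.3, 13.6 and 11.1 CPM in 2MWT and 9.59, 13.8 and 14.2 CPM in 2MWT-L, against 23.4, 20.8 and 29.2 CPM in 2MWT-N and 27.3, 30.5 and 22.9 CPM in 2mlpa. Its mrp-l contrast was 1.08 ± 0.16 (adjusted p = 3.7e-05), and 3mlpa exceeded 3MWT by 1.02 ± 0.31 (adjusted p = 0.0334, not called). The count of 2 rested on single libraries. It was 0 without 2MWT stage 1 replicate 3 or 2MWT-N stage 1 replicate 3, and 1 without 2MWT stage 1 replicate 1 or 2MWT-L stage 1 replicate 1.

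The mrp-l difference depended on stage in few members. Between dry and imbibed seeds it changed in 1 of 259 (0.386%, beside 0.977% of all genes at an adjusted p under 0.01), and between dry seeds and radicle emergence in 2 (0.772%, beside 0.408%). Glyma.19G192000 was the member found both times, since its mrp-l contrast went from 2.19 in dry seeds to 0.00 ± 0.23 in imbibed seeds and 0.19 ± 0.21 at radicle emergence (changes of -2.19 ± 0.37 and -2.0 ± 0.36, adjusted p = 0.0015 and 0.0031, edgeR). The other was Glyma.19G157700 (1.76 between dry seeds and radicle emergence, adjusted p = 0.0076). Over the 36 fits without 1 library the count ranged from 1 to 4.

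The 10 tested members nearest to MRP-L lay from 39 kb before to 109 kb after it. None was called in both MRP pairs, beside 0.199% of all genes called in the same direction and 0.135% in opposite directions. Of these 10, 1 was called in the mrp-l contrast, beside 3.99% of all genes at any stage. Counts over 10 genes are too small to compare with these shares. The called member was Glyma.19G169900, at 102 kb (1.26 ± 0.28 in dry seeds, adjusted p = 0.0026, edgeR), where levels were 0.378 to 2.30 CPM in the MRP subset. Its call was lost without 2mlpa stage 1 replicate 1 (adjusted p = 0.0132). Glyma.19G168900, which starts 0.863 kb before the start of MRP-L, was at or below 1.96 CPM in the dry seeds of all 6 lines of the MRP and Mips-MRP subsets and was not called between them. Glyma.19G169800, 89.1 kb after MRP-L, set these 6 lines apart from those of the Mips subset. It was at 122, 91.0 and 149 CPM in 2MWT, 150, 139 and 130 CPM in 2MWT-L, 197, 224 and 177 CPM in 2MWT-N and 56.7, 52.5 and 108 CPM in 2mlpa in dry seeds. In 1MWT it was at 3.68, 0.329 and 0.261 CPM and in 1mlpa at 0.514, 0.532 and 0.154 CPM, and no library of theirs passed 0.0583 CPM at the later stages. These lines were in another count fit and no test was made between subsets. 3mlpa was at 160, 76.3 and 404 CPM and 3MWT at 73.8, 96.2 and 68.0 CPM in dry seeds, a log2 difference of 1.43 ± 0.39 that was not called (adjusted p = 0.0204, edgeR). Within the MRP subset it had an interaction of -1.68 ± 0.34 in dry seeds (adjusted p = 0.0018), lost without 2mlpa stage 1 replicate 1 (adjusted p = 0.0106).

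3mlpa and 3MWT differed at 17 of 256 members at any stage (6.64%, beside 7.36% of all genes), 12 in dry seeds (4.69%, beside 4.17%), 2 in imbibed seeds (0.781%, beside 0.814%) and 8 at radicle emergence (3.12%, beside 3.63%). Both calls in imbibed seeds were the P450-like Glyma.19G162100 and Glyma.19G159100 described above. The count was sensitive to single libraries. It was 10 without 3mlpa stage 1 replicate 1, 44 without 3mlpa stage 1 replicate 2, and 11 without 3MWT stage 2 replicate 2, 3MWT stage 3 replicate 2 or 3MWT stage 3 replicate 3. 1mlpa and 1MWT, labelled as differing at MIPS1, differed at 33 of 261 members (12.6%, beside 13.9% of all genes), with 24, 9 and 8 at the 3 stages (9.20%, 3.45% and 3.07%, beside 8.53%, 3.66% and 4.89%). The shares of members in these comparisons were near those of all genes.

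The largest difference of 3mlpa from 3MWT at radicle emergence was at Glyma.19G190000, 1807 kb after MRP-L, which the study lists as a Trihelix transcription factor. It was at 148, 162 and 175 CPM in 3mlpa and 14.3, 8.09 and 10.5 CPM in 3MWT, a log2 difference of 3.88 ± 0.50 (adjusted p = 5.3e-05, edgeR). It was also higher in 1mlpa, at 74.7, 90.4 and 110 CPM, than in 1MWT, at 1.39, 14.9 and 9.98 CPM (3.39 ± 0.53, adjusted p = 3.6e-04). In the MRP subset the mrp-l contrast was 0.57 ± 0.43 (adjusted p = 0.455), with 12.6, 15.1 and 62.8 CPM in 2MWT and 36.7, 17.3 and 14.4 CPM in 2mlpa. At this stage the gene was called in both pairs that differ by label at MIPS1 and was not called in the mrp-l contrast. 3mlpa and 3MWT also differ by label at MRP-L and MRP-N, and which locus or line goes with the difference was not tested. Its neighbour Glyma.19G190200, which the study pairs with AT2G36570, an Arabidopsis leucine-rich repeat receptor-like kinase, was higher in the dry seeds of 1mlpa than of 1MWT (2.44 ± 0.37, adjusted p = 1.5e-04), of 3mlpa than of 3MWT (4.25 ± 0.82, adjusted p = 0.0032) and of 2mlpa than of 2MWT-L (3.30 ± 0.54, adjusted p = 9.8e-05). In 2MWT-N (1.64, 3.95 and 3.16 CPM) and 2MWT (1.58, 5.16 and 3.87 CPM) its libraries overlapped. 3MWT had 0, 0 and 20 counts in its dry-seed libraries, and 3mlpa had 63, 262 and 12. The difference between them was 3.1 without 3mlpa stage 1 replicate 2, and 11.05 without 3MWT stage 1 replicate 3, where 3MWT was left with no count, so that this value is no bound. The call was lost without 3MWT stage 1 replicate 1 or 2.

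The study's regulator and target lists annotate 12 members. They were drawn from these samples, so their calls are no independent evidence. Of the 12, 4 were called in the mrp-l contrast (Glyma.19G162100, Glyma.19G164900, Glyma.19G190200 and Glyma.19G192000), 4 in the interaction, 5 in 3mlpa against 3MWT and 7 of 11 tested in 1mlpa against 1MWT, beside 3.99%, 4.81%, 7.36% and 13.9% of all genes. The mrp-l calls of Glyma.19G162100 and Glyma.19G190200, both in dry seeds, were made in 27 and 29 of 36 fits without 1 library. That of Glyma.19G162100 averaged 2.80 for 2MWT-N against 2MWT with -0.29 for 2mlpa against 2MWT-L. Glyma.19G187400, paired with the Arabidopsis glycosyltransferase gene AT2G36760, was at 8.06, 9.54 and 16.4 CPM in 2MWT and 17, 13.7 and 22.5 CPM in 2mlpa in dry seeds, against 29.8, 34.9 and 29.8 CPM in 2MWT-L and 21.6, 43.4 and 37.3 CPM in 2MWT-N (interaction -2.42 ± 0.41, adjusted p = 2.4e-04, edgeR). 3mlpa, at 10.9 ± 0.716 CPM, and 3MWT, at 16.8 ± 7.08 CPM (n = 3), were not called there (-0.63 ± 0.26, adjusted p = 0.103). Glyma.19G172200, paired with AT5G02500, an HSC70 chaperone gene, was at 180 to 622 CPM in libraries of usual depth and was called in 1mlpa against 1MWT in dry seeds alone (1.06 ± 0.18, adjusted p = 3.0e-04). Glyma.19G164600, listed as a MYB factor, had no counts in 22 of 24 dry-seed libraries and was called at radicle emergence in 1mlpa against 1MWT (2.89 ± 0.49, adjusted p = 0.0010).

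Along the chromosome, the share of genes with a called interaction was 5.45% of 55 in the outer 1 Mb before MRP-L, 18.3% of 60 in the inner 1 Mb before it, 9.33% of 75 in the inner 1 Mb after it and 17.4% of 69 in the outer 1 Mb after it. The bins were not tested against each other. Just beyond the interval it was 6.45% of 62 genes before and 8.77% of 57 genes after. A share of 16.7% also occurred 9 to 10 Mb before MRP-L, where it stood for 3 of 18 genes, and one of 15.8% 34 to 35 Mb before it, for 3 of 19 genes. The difference between 2MWT-L and 2MWT was called in 6 of 69 genes (8.70%) 1 to 2 Mb after MRP-L and in 0 of 57, 87 and 69 genes in the next 3 bins of 1 Mb. Larger shares occurred 10 to 11 Mb before MRP-L (2 of 13 genes), and 9 to 10 and 15 to 16 Mb before it (2 of 18 genes each).

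**Figure D5:**
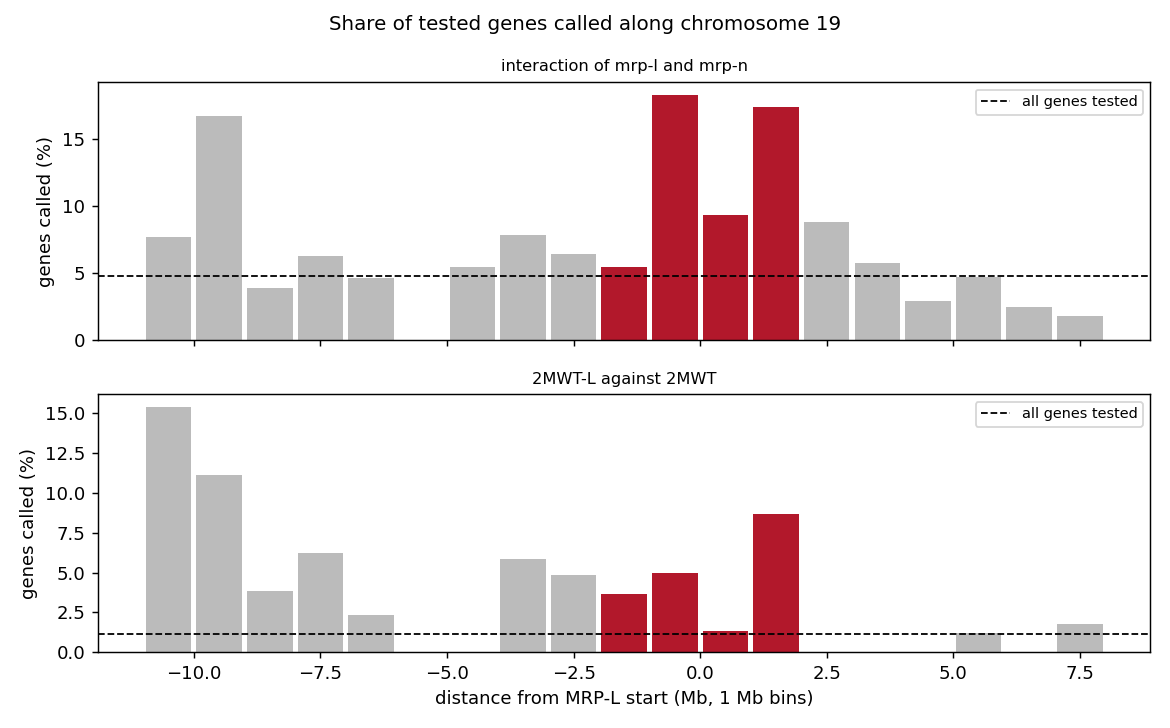
Share of tested genes called at any stage, in percent, in 1 Mb bins by distance from the start of MRP-L (x axis, Mb), for the interaction (top) and 2MWT-L against 2MWT (bottom), in bins with 10 or more tested genes, with the interval in red and the share over all genes as a dashed line. The interaction, called on the adjusted p alone, reaches 18.3% and 17.4% within the interval, and 16.7% in a bin of 18 genes 9 to 10 Mb before MRP-L.

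At the edges of the window, Glyma.19G149300 (1996 kb before MRP-L) was the first gene inside and Glyma.19G149200 (2002 kb before it) the last outside. The first was at 21.1 to 74.5 CPM in dry seeds and the second at or below 1.42 CPM in every library, and neither was called. After MRP-L, Glyma.19G192300 was the last inside, at or below 1.23 CPM, and Glyma.19G192400 the first outside, at 0 in all libraries. Levels that were low in 2MWT, 2mlpa and 3mlpa alone also occurred outside the window. Glyma.19G146800, 2206 kb before MRP-L and chosen after its values were seen, held 0 to 27 counts in each library of 2MWT, 2mlpa and 3mlpa. In imbibed seeds it was at 62.6, 68.3 and 52.8 CPM in 2MWT-L, 59.7 and 93.6 CPM in 2MWT-N and 51.9, 52.2 and 49.2 CPM in 3MWT, and it was also present in 1MWT and 1mlpa at 30.1 to 43.0 CPM. Its interaction was called at every stage (adjusted p = 3.4e-15, 8.0e-17 and 1.1e-15, edgeR).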

How the data were processed

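The authors' methods name Skewer for trimming, STAR 2.5.2b for alignment to the soybean assembly Wm82.a2.v1 and featureCounts 1.5.1. The command line in the file headers counted pairs with both ends mapped over the exons of each gene. It set no option for strand, multiple matches or overlapping genes, and by the program's defaults strand is then ignored and such pairs are not counted. The deposited files hold raw counts per gene for 72 libraries.

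The members and all lists were chosen with earlier results of these data known. Each of the 3 subsets was fitted separately with edgeR 4.0.16 in R 4.3.3, in 1 model of line by stage, after genes whose average TMM-scaled count was 10 or less had been left out (31128, 30721 and 31024 genes tested). Contrasts were tested by the quasi-likelihood F test with Benjamini-Hochberg adjustment over all genes tested, with the call rule given in the text. Interactions and differences between stages were called on the adjusted p alone. Samples were grouped by title and genotype label. The alternatives were DESeq2 1.42.0, RLE factors, no filter, another adjusted p, no fold criterion, a replicate block, separate stages, leaving out the near-empty library and leaving out each library in turn. The fits were tested on simulated counts.

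Replicates within a group correlated at 0.944 to 0.996 (Pearson's r), and no pair of libraries was identical. The sources describe biological triplicates of 10 seeds each from field-grown lines, and do not say whether replicates came from separate plants or plots, so p-values measure the spread between these samples. Named genes were, by rule, the members called in both MRP pairs in the same direction, the 5 tested members nearest to MRP-L on each side, 3 members the study names and the genes at the edges of the window. Rules on members that moved the other way in 3mlpa, and on presence against absence, named none. Members with an interaction at 2 or more stages, members the study annotates, and Glyma.19G146800 were added after their values were seen. Role groups, green tissue markers and sequences were not used here, because the reference table at hand did not match these gene identifiers.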

Additional observations from a re-analysis of the deposited data

Results flagged for a closer look

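For 15 named members the difference between mrp-l and MRP-L lines was not the same in the MRP-N and the mrp-n background, by the interaction term of the edgeR model over all genes. The interaction is given in log2 units at the stage with the lowest adjusted p. Negative values mean that 2mlpa was lower relative to 2MWT-L than 2MWT-N was relative to 2MWT. They were -3.46 for Glyma.19G156200 at radicle emergence, -5.80 for Glyma.19G159100 in dry seeds, -7.31 for Glyma.19G161700 in dry seeds, -7.31 for Glyma.19G162100 in imbibed seeds, -1.68 for Glyma.19G169800 in dry seeds and -2.42 for Glyma.19G187400 in dry seeds. Positive values in dry seeds were 1.46 for Glyma.19G155900, 1.49 for Glyma.19G160700, 1.55 for Glyma.19G164400, 3.74 for Glyma.19G164900, 1.59 for Glyma.19G189600 and 3.59 for Glyma.19G190200. In imbibed seeds they were 2.64 for Glyma.19G178100, 7.59 for Glyma.19G187500 and 3.48 for Glyma.19G189400. Groups of 3 libraries are too small for a test of single libraries that stand apart.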

How the results depend on the processing

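Counts of members called at any stage moved by more than 1.5 times under these settings. An adjusted p under 0.05 gave 25 for the mrp-l contrast (15 in the main analysis), 27 for 2MWT-N against 2MWT (12), 43 for 3mlpa against 3MWT (17), 4 for both MRP pairs in the same direction (2), 58 for the interaction (33) and 15 for dependence on stage (2). Without the fold criterion the mrp-l contrast called 31, and without the filter 2MWT-N against 2MWT called 19. DESeq2 called 41 for 3mlpa against 3MWT, where it also called more of all genes (9.35%, 2.38% and 6.62% at the 3 stages, beside 4.17%, 0.814% and 3.63%). For both MRP pairs DESeq2, RLE factors and separate stages each called 1. Separate stages called 29 for 3mlpa against 3MWT, 7 for 2MWT-L against 2MWT, 13 for 2mlpa against 2MWT-N and 13 for 1mlpa against 1MWT. Of the 33 interaction members, DESeq2 called 26, all shared, and separate stages 23, of which 19 were shared. The cause was not tested. Apart from the DESeq2 shares given, no share of all genes at the same setting stands beside these counts. They therefore do not show whether the members moved more than all genes did.

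A replicate block gave 10 for 3mlpa against 3MWT in place of 17, and it moved no other of these counts by over 1.5 times. With the block 2.76%, 0.553% and 2.99% of all genes were called in that comparison at the 3 stages, beside 4.17%, 0.814% and 3.63% without it. Whether the replicate numbers pair the samples was not settled. Same-numbered deviations correlated at -0.36 to 0.61 in the MRP subset, -0.43 to 0.14 in the Mips-MRP subset and -0.34 to 0.41 in the Mips subset. Their medians were 0.035, -0.088 and 0.169 in that order, beside -0.014, 0.016 and -0.150 for libraries with other numbers.

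Without 1 library at a time the counts ranged from 0 to 3 for both MRP pairs, 10 to 44 for 3mlpa against 3MWT, 7 to 15 for 2MWT-L against 2MWT, 12 to 25 for 2mlpa against 2MWT-N, 10 to 18 for the mrp-l contrast, 23 to 39 for the interaction and 1 to 4 for dependence on stage. Calls over all genes were not counted in these fits, so the ranges have no share of all genes beside them. Of 293 values of 51 calls of named genes under the other settings, 260 stayed past the threshold, 33 did not and 0 changed sign. Those of the interaction of single genes were chosen after seeing the data. Depth limits members near 0, such as Glyma.19G187500 in dry seeds.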
